A study of Mus musculus with 6 samples.

Results

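The regions described here are sites inside introns at which DPPA4 was detected in both cell states of the study, mouse embryonic stem cells (mESCs) and 2-cell-like cells (2CLCs). They were chosen by the presence of a peak in both deposited DPPA4 peak lists. Peaks on chromosomes 1 to 19 were merged into 97623 regions wherever they overlapped by at least 1 bp, and 33104 merged regions of up to 4 kb held peaks of both lists. Of these, 7538 (22.8%) had their midpoint in a gene body, outside every exon and outside the window from 2.5 kb upstream to 0.5 kb downstream of every transcript start. These 7538 regions are 7.72% of all merged regions and are called members below. Because peaks in both lists selected the members, their fold enrichments and significance values are given as a description and carry no test.

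DPPA4 was mapped by CUT&RUN, in which an antibody tethers a nuclease that releases the DNA around the bound protein. All 6 samples came from 1 mouse ESC line of BL6/129 hybrid background, EHMT2-dTAG-mcherry-mervl-gfp, and all, controls included, were treated with dTAG for 72 h, so EHMT2, a methyltransferase of histone H3 lysine 9, was targeted for degradation in every group. There were 2 DPPA4 samples of GFP-negative cells, 2 DPPA4 samples of GFP-positive cells, 1 IgG sample of GFP-negative cells and 1 IgG sample of unsorted cells. GFP is driven by MERVL, an endogenous retrovirus active in 2CLCs, so GFP-negative cells stand for mESCs and GFP-positive cells for 2CLCs, as far as this 1 reporter separates them. Each peak list pools the 2 samples of its group. No error between replicates can therefore be given, the number of reads behind a peak is unknown, and intervals below are 95% intervals that cover only the counting of regions. IgG samples were not analysed here. The lists differ in size, with 81913 peaks on chromosomes 1 to 19 for GFP-negative cells, called the mESC list, and 53110 for GFP-positive cells, called the 2CLC list.

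DPPA4 forms a heterodimer with DPPA2, and both carry a SAP domain that contacts DNA. In pluripotent cells and early embryos the pair is known for binding GC-rich promoters and young LINE-1 retrotransposons, for keeping bivalent promoters free of DNA methylation and for activating genes of zygotic genome activation. Introns hold enhancers, alternative start sites and many inserted transposons, and mouse LINE-1 elements can carry a promoter made of GC-rich units repeated in tandem.

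Most members lay in single-copy DNA, and most of the others in a few families linked by identical stretches. For each member, copy number was taken as the median number of times that the 31-base words in the 200 bp around its summit occur in the mm10 genome. By this measure 5515 members (73.2%) were single-copy and 1657 (22.0%, interval 21.1 to 22.9%) lay in DNA with 10 or more copies. Only 6.74% of windows of the same size tiled over the same intron space reached 10 copies. Members whose windows shared an identical stretch of 50 bases on either strand were joined into families. This gave 58 families with 1764 members. The first 3 families held 1443 members, while the fourth held 76, and 85.8% of all members with 10 or more copies belonged to the first 3. No repeat annotation was used, so the families carry numbers and no repeat names.

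The sequences of these 3 families are shown because they carry much of the strongest signal. Each pair below gives, from mm10, 2 strong members that hold the family's most common stretch, written 5′ to 3′ on the strand that brings that stretch into the same orientation. Capitals mark the 50-base stretch, which was present in 237 of 766 windows of family 1, 265 of 537 of family 2 and 87 of 140 of family 3.
Family 1, Ccdc171 intron, chr4:83643472-83643601 (+): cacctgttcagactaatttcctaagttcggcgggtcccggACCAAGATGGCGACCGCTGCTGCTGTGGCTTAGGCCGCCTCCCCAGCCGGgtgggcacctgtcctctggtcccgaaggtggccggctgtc
Family 1, Gm32511 intron, chr9:71196271-71196400 (+): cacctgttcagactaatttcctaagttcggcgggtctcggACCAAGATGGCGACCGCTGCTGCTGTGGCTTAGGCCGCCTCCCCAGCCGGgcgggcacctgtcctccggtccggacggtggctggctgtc
Family 2, 4930556M19Rik intron, chr15:10778281-10778410 (+): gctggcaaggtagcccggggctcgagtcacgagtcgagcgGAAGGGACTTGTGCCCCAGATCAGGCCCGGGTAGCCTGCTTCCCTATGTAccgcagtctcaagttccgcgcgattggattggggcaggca
Family 2, Prkcb intron, chr7:122542061-122542190 (+): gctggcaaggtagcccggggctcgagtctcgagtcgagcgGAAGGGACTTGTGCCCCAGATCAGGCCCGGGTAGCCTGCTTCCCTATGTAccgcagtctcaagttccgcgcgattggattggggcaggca
Family 3, Gpc5 intron, chr14:116233620-116233749 (-): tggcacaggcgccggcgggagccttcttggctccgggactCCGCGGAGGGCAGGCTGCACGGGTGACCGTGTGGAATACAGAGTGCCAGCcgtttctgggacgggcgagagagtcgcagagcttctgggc
Family 3, Gabrg1 intron, chr5:70761971-70762100 (+): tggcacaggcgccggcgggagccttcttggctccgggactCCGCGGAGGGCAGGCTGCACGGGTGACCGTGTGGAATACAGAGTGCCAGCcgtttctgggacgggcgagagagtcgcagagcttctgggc

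All 3 families were GC-rich, dispersed and tandemly repeated. The median GC content around the summit was 65% in family 1, 63% in family 2 and 66.5% in family 3, against 42.2% over the intron bases that could hold a member. The median number of CpG dinucleotides per 200 bp was 12, 12 and 15, against 1 in tiled intron windows. Median copy number was 1654 in family 1, 2256 in family 2 and 792.5 in family 3, and each family had members on all 19 chromosomes. A repeat of 20-base words at 1 fixed spacing, with at least 30 words repeated, was found in 624 members of family 1 (81.5%), 482 of family 2 (89.8%) and 117 of family 3 (83.6%). The most frequent spacing was 212 bp in family 1, 208 bp in family 2 and 204 bp in family 3. The intronic DNA of these members was therefore built of units of similar length but different sequence. Among members in protein-coding genes of 1 strand, the printed strand ran opposite to the gene in 253 of 600 members of family 1 (42.2%, interval 38.3 to 46.2%), 139 of 419 of family 2 (33.2%, interval 28.8 to 37.8%) and 65 of 115 of family 3 (56.5%, interval 47.4 to 65.2%). The printed strand of each family is arbitrary and not that of an annotated element, so these shares cannot be compared between families.

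Fold enrichment, the pileup at a peak over the local background modelled by the peak caller, was highest in the repeated families. Over all members the median was 5.22 in the mESC list and 4.25 in the 2CLC list, where the value of a region is that of its strongest peak. Family 1 had medians of 10.95 and 8.49, family 2 had 6.45 and 8.47, and family 3 had 9.61 and 12.3, in the mESC and 2CLC list respectively. Single-copy members had 4.83 and 3.89. The families thus lay above single-copy members in both lists, and of these 3 families the second and the third had a higher median in 2CLCs than in mESCs. Reads that matched several positions were placed at 1 of them, so identical copies share their reads and the value at 1 copy cannot be separated from that of the others.

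**Figure D1:**
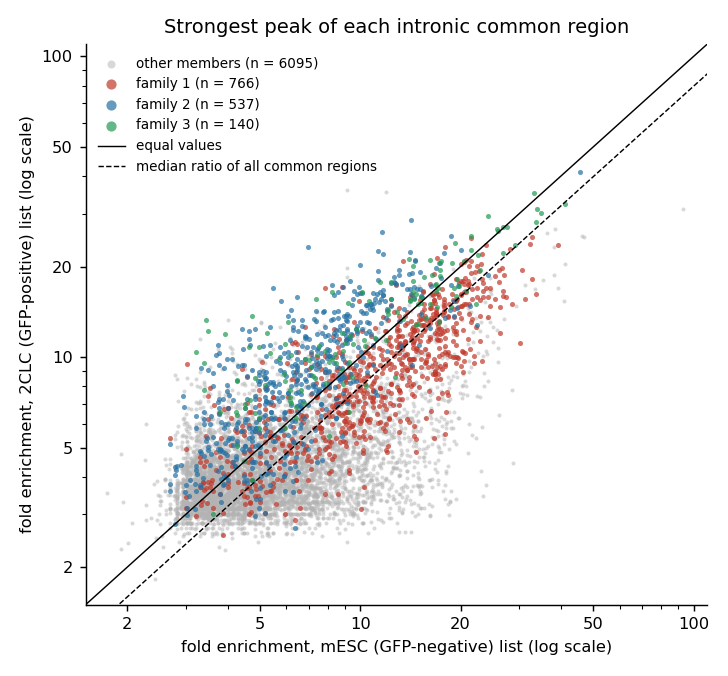
Fold enrichment of the 7538 members in the mESC list (x axis) and the 2CLC list (y axis), both on log scales without a unit, 1 point per member, coloured by sequence family. Family 2 (blue, n = 537) and family 3 (green, n = 140) lie mostly above the dashed line, which marks the median ratio of all common regions, whereas family 1 (red, n = 766) lies around it.

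To compare states, the log2 ratio of fold enrichment, 2CLC over mESC, was centred on its median over all 33104 common regions, which was -0.33. After centring, 355 members (4.71%) were more than 2-fold higher in the 2CLC list, beside 3.95% of all common regions. A further 412 members (5.47%) were more than 2-fold lower, beside 5.09% of all common regions. Both shares were near those of all common regions. The median over all members was 0.11 after centring and -0.22 without it, so the direction for the whole set depended on centring. The families had different medians, which could not be tested against the spread between samples. The median centred log2 ratio was -0.02 in family 1 (interval -0.05 to 0.01), 0.67 in family 2 (interval 0.65 to 0.72) and 0.54 in family 3 (interval 0.45 to 0.59). It was above 0 in 48.0% of family 1, 91.4% of family 2 and 94.3% of family 3, beside 57.6% of all members. Without centring the medians were -0.35, 0.34 and 0.21, so the higher values of families 2 and 3 in the 2CLC list kept their sign. More than 2-fold higher values in the 2CLC list were found for 112 members of family 2 (20.9%) and 23 of family 3 (16.4%), and no member of either family was more than 2-fold lower.

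The same families were also measured outside introns. Family 2 had a median centred log2 ratio of 0.71 in 1352 common intergenic regions and 0.72 in 61 common promoter regions. Family 3 had 0.63 in 264 common intergenic regions and 0.37 in 13 common promoter regions. The promoter value of family 3 was below the interval of its members. Family 1 had 0.01 in both 1705 intergenic and 89 promoter regions. In exons the common regions were few, with a median of 0.12 in 11 regions of family 1, 0.10 in 3 of family 2 and 0.76 in 1 of family 3, so the family 2 value there was lower than in introns. These regions share libraries, and identical copies share reads, with the members, so they are not independent of them. Peaks at the families were also found mostly in both lists. Of all intronic regions that shared a 50-base stretch with family 1, 766 of 837 (91.5%) held peaks of both lists, and the counts were 537 of 641 (83.8%) for family 2 and 140 of 158 (88.6%) for family 3. Families were defined from members alone, so a region of 1 list counted only if it matched a member, which raises these shares. Over all intronic regions the share was 22.9%, which is not a like comparison. Since presence in both lists also chose the members, these shares are a description. Intronic regions of family 2 found in 1 list numbered 72 in the 2CLC and 32 in the mESC list, and those of family 3 numbered 18 and 0. Over all intronic regions these numbers were 6446 and 18870.

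**Figure D2:**
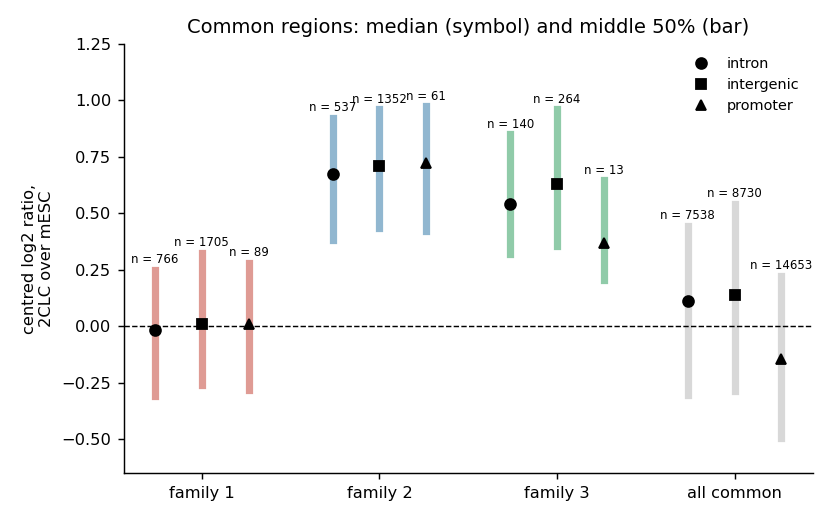
Centred log2 ratio of fold enrichment (y axis, no unit, 2CLC over mESC) of common regions of families 1 to 3 and of all common regions, by position. Symbols are medians, bars span the middle 50% of regions, and the number above each bar is the number of regions. Family 2 lies at 0.67, 0.71 and 0.72 in introns, intergenic DNA and promoters, and family 1 near 0 in all 3.

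Stronger members were more often repeated DNA. Members were split into 4 groups of equal size, from weakest to strongest, by the lower of their 2 −log10 q values, where q is the peak caller's false discovery rate. Families 1, 2 and 3 made up 0.902%, 1.17% and 0.159% of the weakest group and 30.9%, 18.0% and 5.84% of the strongest. Of the 1287 members that reached a −log10 q of 10 in each list, 857 (66.6%) belonged to these families, against 19.1% of all members. The share within 10 kb of a transcript start was 66.4% in the weakest group and 43.2% in the strongest. Median GC content was 53% in the weakest group and 63.5% in the strongest. Single-copy members alone were split in the same way. Their GC content was 53% in the weakest group and 57% in the strongest, a smaller rise, while the share near a start ran the other way, with 67.7% (interval 65.1 to 70.1%) in the weakest and 70.8% (interval 68.3 to 73.1%) in the strongest.

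**Figure D3:**
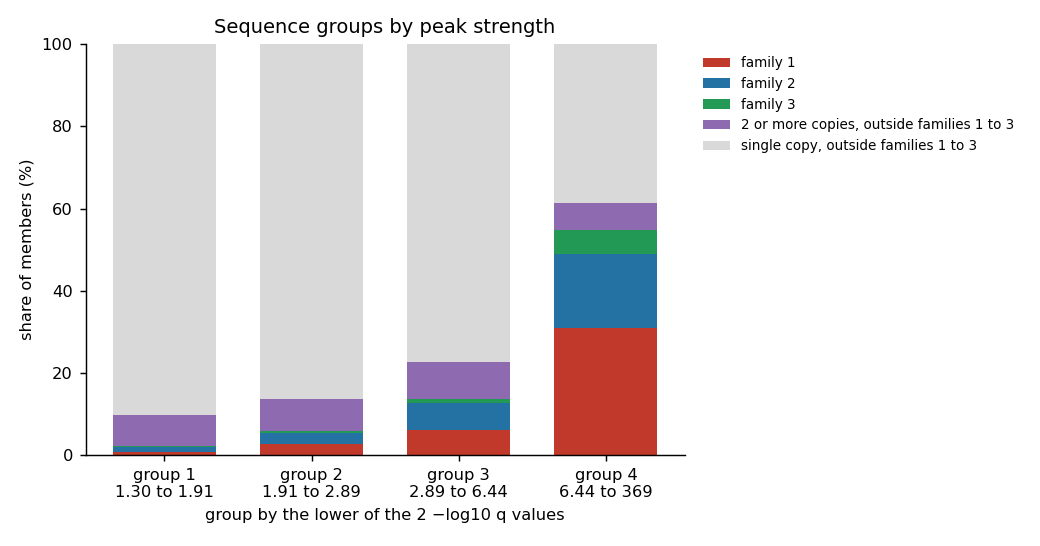
Share of members (y axis, %) in each sequence group, for 4 groups of members of equal size by the lower of their 2 −log10 q values (x axis, range under each bar). Family 1 makes up 30.9% of the strongest group, and single-copy DNA outside the families makes up 38.7% of it and 90.3% of the weakest group.

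Single-copy and repeated members took different places in genes. Over all members, 4441 (58.9%, interval 57.8 to 60.02%) lay within 10 kb of a transcript start, where 40% of the eligible intron bases lie. First introns held 3778 members (50.1%, interval 49.0 to 51.2%) and 42.7% of the bases. Single-copy members were found at 18.4 per Mb of intron up to 2 kb from a start and at 0.644 per Mb beyond 100 kb. Members of families 1 to 3 ran the other way, with 0.643 per Mb up to 2 kb, 0.424 from 2 to 5 kb and 2.52 per Mb beyond 100 kb. Within 10 kb of a start lay 68.7% of single-copy members, but 21.5% of family 1, 19.7% of family 2 and 20% of family 3. Beyond 100 kb the families held 141 of 186 members.

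**Figure D4:**
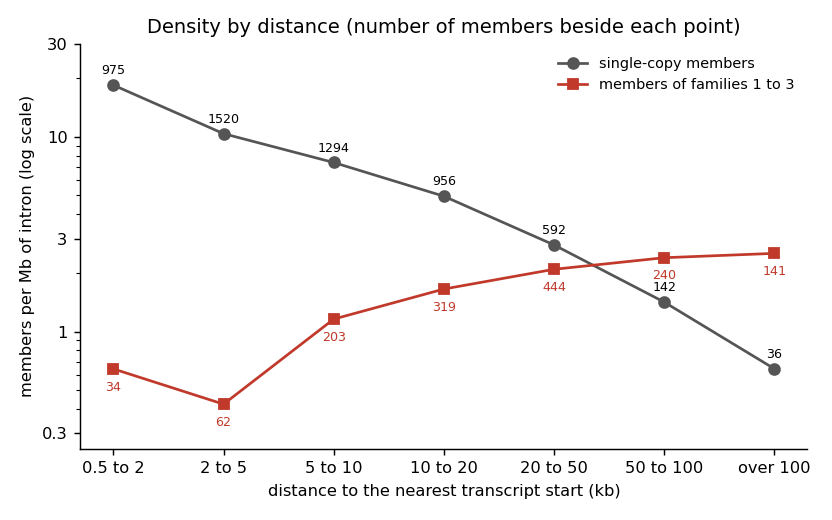
Members per Mb of eligible intron (y axis, log scale) against distance to the nearest transcript start in kb (x axis), with the number of members beside each point. Single-copy members (circles) fall from 18.4 to 0.644 per Mb, and members of families 1 to 3 (squares) go from 0.643, with a low of 0.424 at 2 to 5 kb, to 2.52 per Mb.

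Short motifs set family 2 apart from families 1 and 3, which were alike in those given here. Matches were counted on both strands of the 200-bp summit windows, overlaps with other motifs were allowed, and a match is a description and not a bound site. The GC box GGGCGG, recognised by SP and KLF factors, occurred in 60.4% of family 1, 80.7% of family 3, 0.372% of family 2 and 20.7% of single-copy members. It was present in 50.9% of common promoter regions and in 1.84% of tiled intron windows. The YY1 site AAGATGGC occurred in 77.3% of family 1 and 87.9% of family 3, in 1 member of family 2 and in 1.45% of single-copy members, beside 1.65% of tiled intron windows. The CCAAT box CCAAT occurred in 95% of family 2, 0.914% of family 1 and no member of family 3, beside 27.2% of tiled windows. Members of a family are linked by identical stretches, so these shares do not count independent sites. Single-copy members held the CTCF core AGGGGGC in 8.43% of windows and the NRF1 site GCGCNTGCG in 0.979%, beside 1.63% and 0.0915% of tiled windows. Common promoter regions held them in 12.5% and 7.60%, and intronic regions of the mESC list alone in 5.77% and 0.429%. Median GC content was 54.5% in single-copy members and 42.5% in tiled windows, and motif shares were not adjusted for it. The DUX core GATTNAATC, named for the factor that activates 2-cell-stage genes, matched 17 members (0.226%), beside 0.227% of tiled windows.

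**Figure D5:**
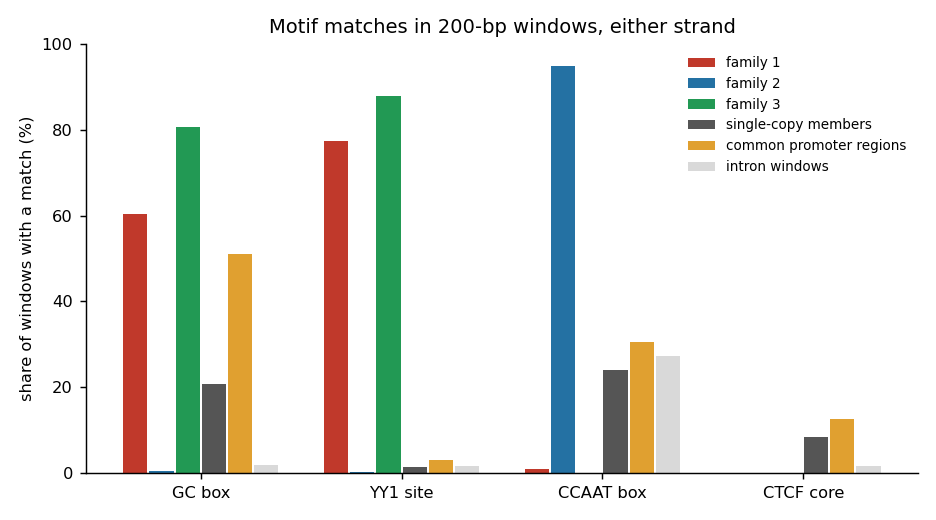
Share of 200-bp windows (y axis, %) with at least 1 match to 4 motifs in families 1 to 3, single-copy members, common promoter regions and tiled intron windows. The GC box and the YY1 site reach 60.4% and 77.3% in family 1 and 80.7% and 87.9% in family 3, whereas family 2 has 0.372% and 0.186% and instead holds the CCAAT box in 95%.

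In fold enrichment and GC content, members lay between common promoter regions and intronic sites of 1 state, but in copy number they did not. Common promoter regions had higher medians of fold enrichment, 7.97 and 5.6, a GC content of 63% against 56% in members, and 2.33% of regions with 10 or more copies. Common intergenic regions had 5.92 and 4.89, and 42.3% with 10 or more copies. Intronic regions of the mESC list alone had a median of 3.62, with 2.24% in DNA with 10 or more copies, and those of the 2CLC list alone had 3.51, with 17.9%. Intronic sites with a peak in 1 list had lower medians than members. A peak in both lists chose the members, so this difference follows in part from the selection. Sites of the mESC list alone were nearly all single-copy. In members the summits of both lists lay a median of 80 bp apart, and 5528 members (73.3%) had them within 200 bp. Spearman's rank correlation of fold enrichment between lists was 0.53 over the 7538 members and 0.40 over the 5515 single-copy members, and the peaks of identical copies are not independent points.

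The 10 members with the highest lower −log10 q value included unusually narrow regions. The first was a 532-bp region in an intron shared by Cmss1 and Filip1l, with −log10 q of 369 in mESCs and 452 in 2CLCs but a fold enrichment of only 9.35 and 10.04. A 150-bp region in Il31ra, which encodes an interleukin receptor subunit, had 282 and 260. Regions of 325 bp in Camk1d, a calmodulin-dependent kinase gene, and of 274 bp in Gphn, which encodes the synaptic scaffold gephyrin, showed the same combination, with fold enrichments of 12.8 and 14.3 and of 7.19 and 8.12. Regions of 445 bp in Jarid2, 336 bp in Arhgap21 and 231 bp in Dnah7b were narrow too, with fold enrichments between 11.8 and 22.0. The median width of members was 1073 bp, so these regions were narrow and had high significance at moderate enrichment. What underlies this was not tested. The highest fold enrichment of the 10 was that of Ank3, the gene of ankyrin G, with 92.7 in mESCs and 31.1 in 2CLCs. The family 2 member of 4930556M19Rik had 45.6 and 41.4, and the family 3 member of Gpc5, a glypican gene, had 33.2 and 35.1.

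Sequences of single-copy members are shown to set them beside the families. Each is the 120 bp around the summit on the plus strand of mm10, with CG dinucleotides in capitals. The word intron after a gene name refers to the midpoint of the member, whereas the printed bases follow the summit. In Rrbp1 and Klf2 the member covered a transcript start, so the printed bases can lie outside the intron. The first 3 are the strongest single-copy members, of which Camk1d shared a 50-base stretch with another member in Dnah7b, Klf2 is the strongest single-copy member of the naive pluripotency list after Jarid2, and Tmcc3 and Itpr3 have the lowest centred ratio of all and the highest among single-copy members.
Camk1d intron, chr2:5379261-5379380: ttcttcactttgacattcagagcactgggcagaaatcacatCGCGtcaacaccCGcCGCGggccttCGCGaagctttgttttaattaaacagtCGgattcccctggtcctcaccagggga
Jarid2 intron, chr13:44869577-44869696: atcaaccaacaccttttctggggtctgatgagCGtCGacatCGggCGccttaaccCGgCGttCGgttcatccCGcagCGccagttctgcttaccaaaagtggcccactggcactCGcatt
Rrbp1 intron, chr2:144011396-144011515: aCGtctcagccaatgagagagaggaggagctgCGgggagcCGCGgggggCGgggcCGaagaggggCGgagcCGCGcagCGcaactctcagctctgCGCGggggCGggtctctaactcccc
Klf2 intron, chr8:72318874-72318993: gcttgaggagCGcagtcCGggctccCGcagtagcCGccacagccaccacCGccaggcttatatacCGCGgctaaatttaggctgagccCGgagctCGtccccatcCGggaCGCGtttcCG
Tmcc3 intron, chr10:94426437-94426556: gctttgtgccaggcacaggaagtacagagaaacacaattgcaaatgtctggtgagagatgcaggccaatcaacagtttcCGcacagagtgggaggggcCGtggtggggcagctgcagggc
Itpr3 intron, chr17:27092339-27092458: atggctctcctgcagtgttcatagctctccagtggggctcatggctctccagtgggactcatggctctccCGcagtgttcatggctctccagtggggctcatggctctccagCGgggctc

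Rrbp1, which encodes a ribosome-binding protein of the endoplasmic reticulum, held a 2418-bp member with fold enrichments of 36.4 and 26.0. Nucks1, a nuclear DNA-binding protein gene, had 38.2 and 23.3, and Micall2, a regulator of membrane traffic, had 46.8 and 25.1. The midpoints of all 3 lay in first introns less than 1 kb from a start, at 648, 777 and 568 bp. With widths of 2418, 3248 and 2360 bp, each of these 3 members also covered that start. Their summits, and the fold enrichments taken there, can therefore lie in the promoter and not in the intron.

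The members with the most unequal values between lists were chosen for that difference, among those whose stronger list gave a −log10 q of 10 or more. The 5 lowest centred ratios were single-copy members in Tmcc3, Scn8a (a voltage-gated sodium channel), Pakap and Palm2, Cep89 (a centrosomal protein) and Grm4 (a glutamate receptor). Tmcc3 had a fold enrichment of 23.3 in mESCs and 3.44 in 2CLCs, and Scn8a had 28.8 and 4.46. The centred log2 ratios of the 5 ran from -2.43 to -2.20. In the other direction most of the members lay in repeated DNA. Ctnna3, an alpha-catenin gene, had 3.44 and 13.3, and Smok3b had 3.50 and 12.2, both with family 3 sequence. Prkaa2, which encodes a subunit of the energy sensor AMPK, had 6.99 and 23.3 with family 2 sequence. The exception was Itpr3, an inositol trisphosphate receptor gene, single-copy by the measure used, with 3.31 and 11.5; the printed window repeats a short unit. Over all single-copy members, 382 (6.93%) were more than 2-fold lower and 125 (2.27%) more than 2-fold higher in the 2CLC list after centring.

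The sequence groups below the first 3 families were small. Family 4 had 76 members with a median copy number of 2.5 and fold enrichments of 3.57 and 3.90. Family 5 had 21 members on 1 chromosome, no 2 of which had exactly the same set of host genes. Family 6 had 16 members on 10 chromosomes with fold enrichments of 5.05 and 9.67, and its median centred log2 ratio of 1.24 was the highest of the 6 families described. All 16 of its members had a centred ratio above 0.

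Hosts were counted among protein-coding genes. Of 18164 genes with eligible intron, 3978 (21.9%) held at least 1 member, and 2595 of them (65.2%) held exactly 1. There were 177 genes with 5 or more and 21 with 10 or more. A total of 904 members lay only in genes of other types, 527 of them only in lincRNA genes. The share of genes with a member rose with intron length, from 6.87% of genes with up to 5 kb of eligible intron to 57.2% of genes with over 100 kb. Members per Mb fell over the same range, from 35.6 to 5.22. A common region in the gene's own promoter was found for 2693 hosts (67.7%, interval 66.2 to 69.1%) and for 57.4% of genes without a member. Among genes with over 100 kb of eligible intron these shares were 66.6% and 66.4%, against 66.6% and 47.7% at up to 5 kb, so the difference narrowed with intron length. In 2418 hosts (60.8%) an intronic region of the mESC list alone was present too, and in 1525 (38.3%) one of the 2CLC list alone. These shares were not set beside those of other genes. Hosts also had more eligible intron, with a median of 41.3 kb against 9.90 kb in genes without a member. Chromosome 8 had the most members per Mb of intron, 13.8, and chromosome 6 the fewest, 4.44, with 8.05 over all chromosomes.

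The most members were counted in Gm20388, 181, whose annotated body of 4435 kb on chromosome 8 spans many other genes. Gse1, which encodes a chromatin co-repressor subunit, held 29 members in 322 kb of intron, 0 of them in DNA with 10 or more copies, beside 62 regions of the mESC list alone and 3 of the 2CLC list alone. Fgfr2, a fibroblast growth factor receptor gene with an annotated body of 2961 kb, held 21. Dst, which encodes the cytoskeletal linker dystonin, and Macrod1, which encodes an ADP-ribose hydrolase, held 20 each. Dst had 8 regions of the mESC list alone and 35 of the 2CLC list alone, whereas Msi2, an RNA-binding protein gene with 19 members, had 67 and 6. Over all intronic regions, 18870 were of the mESC list alone and 6446 of the 2CLC list alone. Of Gse1, Dst and Msi2, only Dst had more regions of the 2CLC list alone. Cux2 held 17, Casz1 16, Sh3pxd2a 15 and Mtus2 12, the first 2 being transcription factor genes. Per Mb of intron, among genes with at least 5 members, the highest were Tmprss9 (340), Unc13a (330), Pxn (323), Fbxo31 (298) and Gcn1l1 (270). Each of these 5 had between 20.1 and 29.6 kb of eligible intron. Gse1 and Fbxo31 lie within the annotated body of Gm20388, so their members count for both genes.

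Gene lists are described by their counts beside the 21.9% of all genes and 8.05 members per Mb. Both values change with intron length, and the lists were not matched for it. Genes with 20 to 50 kb of eligible intron had 25.6% and 13.2 per Mb, and those with 50 to 100 kb had 36.9% and 9.49 per Mb. The naive pluripotency list had 0.770 Mb of eligible intron in 28 genes, chromatin repressors 1.64 Mb in 42, and the H3K4 and coactivator list 2.42 Mb in 28. In the naive pluripotency list, 13 of 28 genes with eligible intron (46.4%) held 20 members, 26.0 per Mb. The strongest was that of Jarid2, a Polycomb cofactor, with fold enrichments of 19.02 and 19.65 and a width of 445 bp. With −log10 q values of 202 and 211, it is 1 of the narrow regions of high significance described above. Klf2, a naive-state transcription factor gene, had 7.01 and 7.11, Mycn had 8.27 and 5.37, and the nuclear receptor gene Nr5a2 had 5.09 and 5.21. After centring, Jarid2, Klf2 and Nr5a2 had log2 ratios of 0.38, 0.35 and 0.36, above the median of all members, and Mycn had -0.29. Without centring the first 3 were close to equal in both lists. Trim71, which encodes a developmental RNA regulator and held the most members of the list (4, named after its values were seen), had fold enrichments of 8.95 and 3.76, 10.2 and 3.88, 6.09 and 3.15, and 4.84 and 3.59. All 4 were higher in the mESC list without centring. On the same uncentred values, only 33.4% of all members were higher in the 2CLC list. Over the 20 members of the list the median centred log2 ratio was -0.20, against 0.11 over all members. Of the 20, 9 were above 0, beside 57.6% of all members.

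In the 2-cell stage list, 3 of 21 genes (14.3%) held 4 members, all in the oocyte homeobox genes Obox1, Obox3 and Obox6 on chromosome 7. The strongest, in Obox1, had fold enrichments of 4.97 and 5.59 and a copy number of 1824, and the member of Obox6 had 3.21 and 7.08. All 4 lay in DNA with 10 or more copies, and these genes are close paralogs, so the placing of reads among them is uncertain. The list had 18 intronic regions of the 2CLC list alone and 0 of the mESC list alone, beside 6446 and 18870 over all intronic regions. In the germline and meiosis list, 6 of 24 genes held 7 members, the strongest in Sycp1, a synaptonemal complex gene, with 7.43 and 10.03 in DNA of 2900.5 copies. Stra8, a gene of meiotic entry, had 13.7 and 5.82 in single-copy DNA.

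Genes of chromatin control held members in moderate numbers. Of 42 genes for chromatin repressors, 16 (38.1%) held 34 members, 20.7 per Mb. The strongest was in Trim28, which encodes the KRAB zinc finger co-repressor KAP1, with 16.2 and 7.19, followed by Mga, Hdac1 and Kdm1a with 6.89 and 5.82, 5.45 and 5.37, and 6.41 and 5.02. Of 28 genes for H3K4 methylation and coactivators, 12 (42.9%) held 29 members, 12.01 per Mb. Their strongest member, in the Mediator subunit gene Med12l, had 9.97 and 16.3 in DNA of 2245 copies, while that of Arid1b, a chromatin remodeller subunit, had 20.3 and 8.79 in single-copy DNA. Over the 29 members of the list, 23 had a centred log2 ratio above 0, beside 57.6% of all members, and 4 lay in DNA with 10 or more copies. For DNA methylation and demethylation, 4 of 15 genes (26.7%) held 7 members. Tet2 had 7.13 and 7.36, Tet1 8.72 and 4.74, Dnmt3a 5.64 and 5.02 and Tet3 4.2 and 3.90.

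Among signalling genes, 10 of 24 FGF and ERK genes (41.7%) held 34 members, 21 of them in Fgfr2. The annotated body of Fgfr2 spans other genes, such as Ate1, Chst15 and Pstk, whose members count for Fgfr2 as well, and the other genes of the list with a member held 1 to 3 each. Sos1, a guanine nucleotide exchange factor for RAS, had the strongest, with 23.0 and 13.1. The WNT list had 10 of 24 genes (41.7%) with 19 members, the strongest in the transcription factor gene Tcf7l2 with 10.2 and 7.17, and the NODAL, BMP and TGF-beta list had 9 of 28 (32.1%) with 12. There Smurf1, a ubiquitin ligase gene, had 41.2 and 20.3 in a 3927-bp member that covered a start and had its midpoint 614 bp from it. The receptor gene Bmpr1b had 9.51 and 15.6 in DNA of 2237 copies. LIF and STAT3 genes held 4 members in 4 of 14 genes, and none had a fold enrichment above 4.93 in either list. All of these lists had fewer members per Mb than the naive pluripotency list, between 6.96 and 11.9.

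Lineage lists ranged widely. Primitive endoderm genes had 7 of 15 with a member (46.7%), led by the transcription factor gene Gata4 with 8.36 and 7.19. Trophoblast genes had 3 of 18 (16.7%), led by Tead3 with 9.93 and 7.25, and formative and primitive streak genes 1 of 11, Lef1, with 7.83 and 4.93. The primitive endoderm, trophoblast and formative lists held 1.00, 0.412 and 0.306 Mb of eligible intron, with 11.0, 7.29 and 3.27 members per Mb. Their shares of genes were thus not matched for intron length, and the lists were small. Imprinted genes had 6 of 26 (23.1%), with 2 members in the potassium channel gene Kcnq1, the stronger at 10.5 and 6.22. Long neuronal genes had 29 of 32 (90.6%) but only 3.13 members per Mb, and 109 of their 128 members lay in DNA with 10 or more copies. Fgf14, which encodes a fibroblast growth factor homologous factor, had 22.4 and 20.1, and Cntnap5a, a neurexin-related gene, 30.5 and 19.5. Among all genes with over 100 kb of eligible intron, 57.2% held a member, at 5.22 per Mb. The median centred log2 ratio of the list was 0.22, against 0.11 over all members, and 86 of the 128 were above 0, beside 57.6% of all members.

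At the limits of the selection, the narrowest intronic common region left out for its width was 4004 bp on chromosome 10, with fold enrichments of 28.4 and 18.7. In all 131 intronic common regions were wider than 4 kb. The member nearest downstream of a start lay 501 bp away in Smad7, with 11.0 and 5.10, and a region 500 bp away, with 20.7 and 8.48, was left out. The nearest upstream lay 2502 bp away in Luzp2, with 14.1 and 9.53, and a region 2499 bp away, with 4.07 and 3.72, was left out. The start windows removed 4564 common regions that were otherwise intronic. When the midpoint of both summits was used in place of the midpoint of the region, 6846 of the 7538 members (90.8%) were still intronic, 385 fell in an exon and 305 in a start window.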

How the data were processed

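Per the labels and the study's methods, the authors trimmed reads with bbduk, aligned them to mm10 with STAR 2.7.10, keeping 1 position for reads with several, removed duplicates with Picard 2.26.0 and blacklisted reads, and called peaks with MACS2 2.2.6 on the pooled samples of each DPPA4 group. SAMtools 1.14 and bedtools 2.30.0 were also named in the submitters' processing notes. The control used for peak calling is not given in the sources used here. The deposited columns hold fold enrichment, a ratio over the local background, −log10 p and −log10 q values, an integer score and the summit offset, which is a position. Fold enrichment, −log10 q and the summit were used. Every listed peak has a −log10 q of at least 1.30.

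Regions were annotated with GENCODE vM21 on mm10. Windows of 200 bp were centred on the midpoint of both summits, and 31-base words were counted on both strands of chromosomes 1 to 19, X and Y. Shares carry Wilson intervals and medians binomial order-statistic intervals, both at 95%. The merging and annotation code was tested on simulated regions. With 1 pooled list per group no test between groups was possible, and the depth per sample is unknown. The members and lists were chosen with earlier results of these data known. The named genes are the 10 members with the highest lower −log10 q, the 5 highest and 5 lowest centred ratios, up to 4 members per gene list, the genes with the most members in number and per Mb, and the members at the limits of the selection. The families and their 50-base stretch were chosen after seeing the data. Python 3.11.15 with numpy 2.4.6, pandas 2.3.3 and numba 0.67.0 was used. Some results that the rule for named genes would give are not reported here.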

Additional observations from a re-analysis of the deposited data

Results flagged for a closer look

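Chromosomes X and Y were outside the selection. By the same definition chromosome X held 143 intronic regions with peaks of both lists, 3.24 per Mb of eligible intron, with median fold enrichments of 8.89 for mESCs and 8.21 for 2CLCs. Chromosome Y held 9, with medians of 6.18 and 6.78. Both were noted as signal in data that the comparisons above do not use.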

How the results depend on the processing

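The results depended most on peak strength. When only peaks with a −log10 q of 5 or more were merged, 2389 members remained, 15.74% of common regions, with median fold enrichments of 9.262 (mESC list) and 7.45 (2CLC list), 9.334% more than 2-fold apart, 46.42% within 10 kb of a start, 48.51% in a first intron, a soft-masked share of 56.88%, a GC content of 63%, 48.93% with 10 or more copies and 39.06% of hosts with a common promoter region. With the 10000 strongest peaks of each list these values were 846, 13.07%, 14.98, 11.48, 6.619%, 35.82%, 47.4%, 73.6%, 65%, 69.62% and 13.03%. With summits within 200 bp, values outside the counting interval were 21.65% of common regions, fold enrichments of 5.552 and 4.364, 57.02% near a start, 38.23% masked, 57% GC, 24.6% with 10 or more copies and 55.44% of hosts. With the midpoint of the summits they were 22.16% of common regions, 36.83% masked, 55.5% GC and 69.8% of hosts. With protein-coding genes alone they were 21.53% of common regions, a 2CLC fold enrichment of 4.188, 52.99% near a start, 48.7% in a first intron, 32.87% masked and 19.49% with 10 or more copies. Windows of 400 bp gave a GC content of 55%, and whole regions gave 52.97% with 34.2% masked. A limit of 5 kb left 37.13% near a start, 2 or more copies were reached by 26.84% and 100 or more by 18.96%, no centring put 13.82% more than 2-fold apart, and promoters from 1 kb upstream gave 64.81% of hosts. The main soft-masked share was 35.7%.

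For the families, alternatives were chosen after seeing the data. The median log2 ratio of family 1 was -0.0605 with 80 identical bases, -0.0703 when centred on single-copy members and -0.35 without centring. It was 0.62 and 0.34 for family 2 under the latter 2, and 0.21 for family 3 without centring. In all, 22 of 76 alternative values stayed within the counting interval, or within 1.5 times the main count, and the causes of the other shifts were not tested.

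No paired analysis was possible because each peak list pools its group's samples. For the same reason no sample was left out in turn, and whether the differences between families exceed the spread between replicates is unknown. Depth and IgG background at the members were not measured.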
